A study of Rattus norvegicus with 6 samples.

Results

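The 9 genes Ahsp, Alas2, Gata1, Klf1, Slc4a1, Epb42, Rhag, Hbb and Hemgn mark the red blood cell lineage, and their RNA was followed in rat liver. They were read from 16 probes, chosen by matching the accession of each array probe to rat RefSeq symbols, out of 61657 probes and 15284 named genes in all. The livers came from 6 male Sprague-Dawley rats, bought at 5 weeks of age, with 1 one-colour Agilent array per animal. The study gave 3 of these rats vehicle and dosed the other 3 with tert-butyl alcohol, here tBA, a small branched alcohol and solvent, at 1000 mg/kg per day. The labels name purified water as the vehicle in 1 place and corn oil in another, and give 28 days of dosing in 1 place and 9 weeks in another. The animals shared stock, sex and diet, and no allele or transgene is named. The replicates are separate animals, per the labels.

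Adult rat liver is not a main site of red cell production, but the organ is full of blood, and circulating reticulocytes still carry globin messenger RNA. Red cell precursors are driven by the transcription factors GATA1 and KLF1, make haem through an erythroid form of aminolevulinate synthase, pack it into haemoglobin with the help of a chaperone, and build a membrane around the anion exchanger. In bulk liver RNA, fewer cells of a type and less RNA per cell cannot be told apart. The question put to the data was whether these transcripts differed between livers of tBA-treated and vehicle-treated rats.

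The levels below are log2 of the processed spot signal minus the 75th percentile of the same array, so 0 is the signal that 75% of probes do not exceed. They compare 1 probe between arrays, not 1 gene with another. A spot was well above background when the scanner software marked it so, and the lowest such signal lay between -5.73 and -5.13 on this scale in the 6 arrays. All 3 vehicle arrays shared slide 1 with tBA replicate 1, whereas tBA replicates 2 and 3 were on slide 2. The percentage of probes well above background ran from 61.5% to 66.9%, with the highest value in vehicle replicate 2, and no spot was saturated. The liver identity of the samples was checked with 10 hepatocyte markers, which were well above background on all arrays, with albumin between 9.54 and 9.65.

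Signals of red cell transcripts varied widely between arrays of the same group, and no erythroid gene tested passed between tBA and vehicle. Globin messages were read at bright signals in every liver, whereas the lineage factors Gata1 and Klf1 and the membrane genes Rhag and Epb42 were dim or not detected. With limma and adjustment over all probes, 0 of the 8 erythroid probes tested had an adjusted p under 0.05, against 42 of 37647 probes in all (0.112%), of which 0.0691% were higher and 0.0425% lower with tBA; over named genes the background was 0.0451%. The 8 probes were well above background on all 6 arrays, and where that was required 0 of 35660 probes passed. At these shares 0 of 8 is no result about the members. At an unadjusted p under 0.05 there were 5952 probes, 15.8% of those tested, and again 0 of the 8. The groups failed to overlap in 24.7% of all probes tested (24.2% of named genes) and in 0 of the 8 erythroid probes tested. They also overlapped in the 8 erythroid probes that were not tested. By their brightest probe, 6 of the 9 genes could be tested. Among these, Hbb and Klf1 had higher means with tBA and Ahsp, Alas2, Slc4a1 and Hemgn lower means, with a median difference of -0.13. Over the 11093 genes tested, 50.4% had higher means with tBA and the median difference was 0.0024. The other 3 genes, Gata1, Epb42 and Rhag, were well above background on all arrays of neither group and are described by their values only. An exact two-sided permutation test of 3 arrays against 3 cannot give a p below 0.1.

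**Figure D1:**
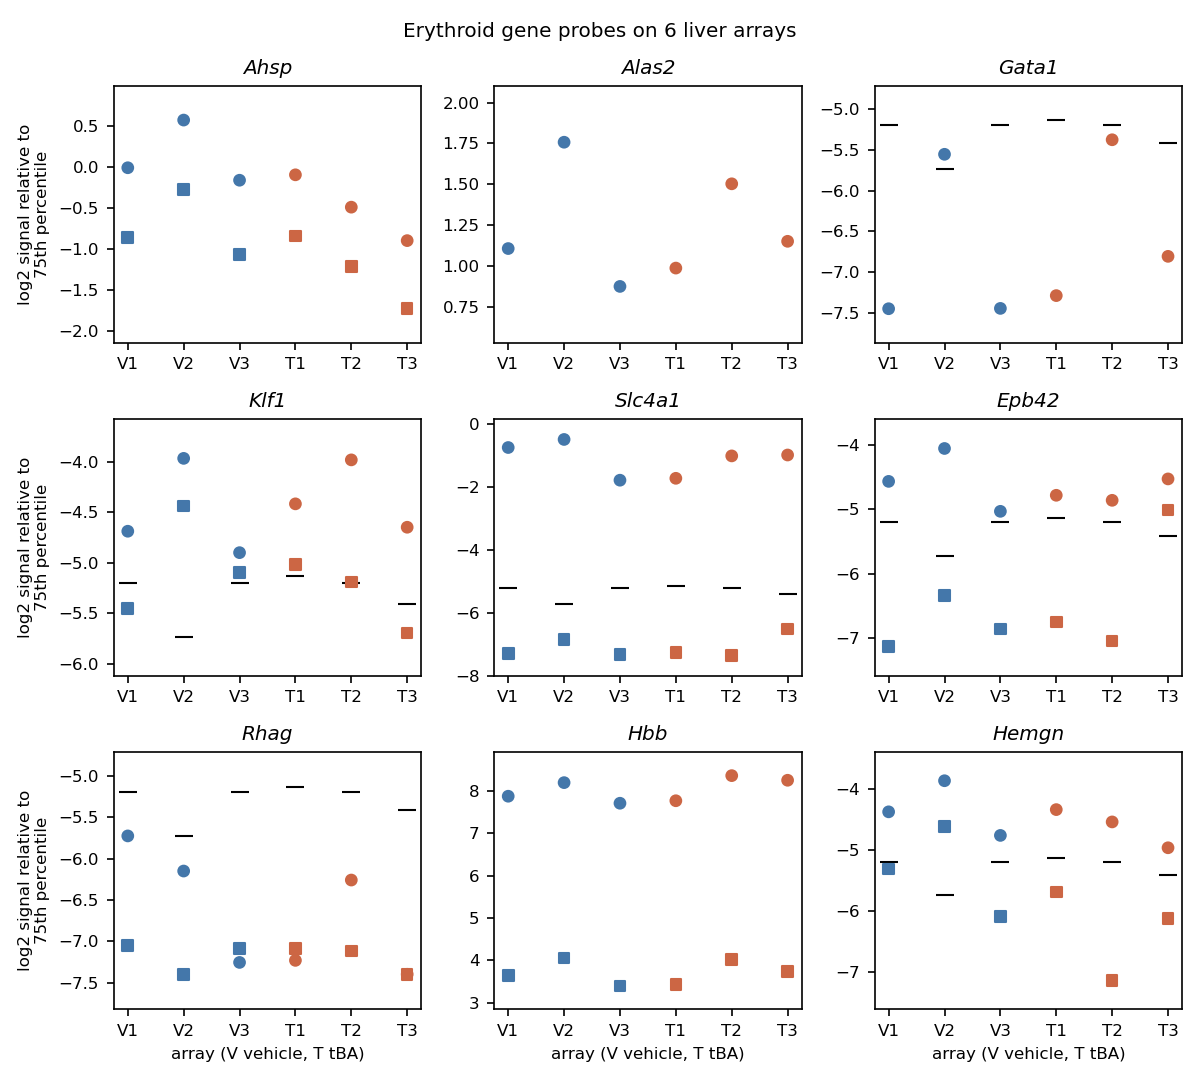
Level of every erythroid probe on the 6 arrays, as log2 signal relative to the 75th percentile of the array (vertical axis), with vehicle arrays in blue and tBA arrays in orange. Circles are the brightest probe of a gene, squares its second probe, and short black bars the lowest signal well above background on that array, drawn where a probe lies below -4. The groups overlap in all 16 probes.

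The transcription factors were near the limit of detection. Gata1 encodes the zinc finger factor that switches on most red cell genes. Its probe read -7.45, -5.56 and -7.44 on vehicle replicates 1 to 3 and -7.29, -5.38 and -6.81 on tBA replicates 1 to 3, and was well above background on vehicle replicate 2 alone. Klf1, a zinc finger factor that activates the adult beta-globin gene, was read by a probe well above background on all 6 arrays. Its vehicle values were -4.69, -3.96 and -4.90 and its tBA values -4.42, -3.98 and -4.65. Vehicle replicate 2 and tBA replicate 2 were highest, and the tBA range lay inside the vehicle range. The difference, tBA minus vehicle, was 0.17 (SE 0.29, 95% interval -0.52 to 0.86, limma adjusted p = 0.787). It was -0.015 without tBA replicate 2 and -0.022 without vehicle replicate 3. A second Klf1 probe was well above background on vehicle replicate 2 alone, at -4.44, and ran from -5.46 to -5.09 on the other vehicle arrays and from -5.70 to -5.02 on the tBA arrays. Hemgn encodes a nuclear protein of blood cell precursors. Its brightest probe read -4.37, -3.86 and -4.76 in vehicle livers and -4.34, -4.54 and -4.96 in tBA livers. The lowest array was tBA replicate 3 and the highest vehicle replicate 2, and the groups overlapped. The difference was -0.28 (SE 0.27, 95% interval -0.93 to 0.36, limma adjusted p = 0.615). It was -0.046 without vehicle replicate 2 and 0.071 with normexp background correction. The second Hemgn probe was well above background on vehicle replicate 2 alone, at -4.61, and ran down to -7.15 on tBA replicate 2.

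Alas2, the erythroid form of the enzyme that starts haem synthesis, was the member with the closest group means. Its single probe read 1.11, 1.76 and 0.88 on the vehicle arrays and 0.99, 1.5 and 1.15 on the tBA arrays. Vehicle replicate 2 and tBA replicate 2 were again highest, and vehicle replicate 3 lowest. The difference was -0.033 (SE 0.26, 95% interval -0.65 to 0.59, limma adjusted p = 0.960). Without vehicle replicate 2 it was 0.22, and without vehicle replicate 3 it was -0.22. In the processed signal before scaling, vehicle replicate 2 read 2133 and the other vehicle arrays 1279 and 1172.

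The starts of Hbb, Alas2 and Klf1 are shown as a globin gene, the gene of the haem enzyme and the gene of the factor that activates beta-globin. Over the 6 arrays Pearson r was 0.89 for Alas2 with Klf1, 0.77 for Alas2 with Hbb and 0.68 for Klf1 with Hbb. Among the other pairs of members r ran from -0.28 for Ahsp with Hbb to 0.91 for Ahsp with Hemgn. It was 0.78 for Alas2 with Slc4a1, 0.67 for Slc4a1 with Hbb, 0.39 for Ahsp with Alas2 and 0.022 for Hbb with Hemgn. The probes of Klf1 and Hemgn were dim. These correlations are descriptions, since the points share slides and groups. The 250 bases before the start are printed 5′ to 3′ on the gene's strand, from RefSeq on GRCr8. They lie at chr1:167663722-167663971 on the minus strand for Hbb, chrX:22895200-22895449 on the plus strand for Alas2, and chr19:40158652-40158901 on the minus strand for Klf1. Capitals mark AGATAA or TGATAA, letters bound by GATA factors, or CCNCNCCC, the form of a CACC box, on either strand.
Hbb: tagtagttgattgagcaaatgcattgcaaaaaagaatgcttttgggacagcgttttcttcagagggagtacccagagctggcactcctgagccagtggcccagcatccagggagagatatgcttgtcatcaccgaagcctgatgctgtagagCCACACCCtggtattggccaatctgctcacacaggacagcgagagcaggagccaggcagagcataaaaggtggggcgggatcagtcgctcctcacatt
Alas2: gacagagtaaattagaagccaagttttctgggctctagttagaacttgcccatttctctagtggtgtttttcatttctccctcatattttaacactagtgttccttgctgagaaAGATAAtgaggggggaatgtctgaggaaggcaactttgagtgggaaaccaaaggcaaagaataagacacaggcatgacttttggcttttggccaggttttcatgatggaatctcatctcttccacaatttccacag
Klf1: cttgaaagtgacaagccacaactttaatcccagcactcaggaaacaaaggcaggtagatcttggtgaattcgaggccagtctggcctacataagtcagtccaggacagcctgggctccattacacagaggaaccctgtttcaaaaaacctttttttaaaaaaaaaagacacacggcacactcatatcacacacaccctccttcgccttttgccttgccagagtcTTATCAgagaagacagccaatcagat

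The match of Hbb is a CACC box beginning 98 bases before the start, that of Alas2 a GATA motif beginning 136 bases before it, and that of Klf1 a GATA motif on the opposite strand beginning 26 bases before it. The GATA and CACC searches shared no letters in these 3 windows. Among 33469 promoter windows of the same length, 16.9% held AGATAA or TGATAA and 42.8% held CCNCNCCC. Of the 9 genes, 7 had an entry, 4 with a GATA match and 3 with a CACC match. A match is a description of letters and not a bound site.

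Haemoglobin messenger RNA was read by the brightest probes among the members. Hbb encodes adult beta-globin, and its brightest probe read 7.88, 8.20 and 7.72 in vehicle livers and 7.77, 8.37 and 8.26 in tBA livers. The values of tBA replicates 2 and 3 lay above the vehicle range, and tBA replicate 1 lay inside it. The difference was 0.20 (SE 0.20, 95% interval -0.29 to 0.69, limma adjusted p = 0.634). Within slide 1, where tBA replicate 1 stands alone against the 3 vehicle arrays, it was -0.16. With 1 array left out it ran from 0.084 without tBA replicate 2 to 0.38 without tBA replicate 1. The second Hbb probe read 3.64, 4.05 and 3.39 against 3.43, 4.02 and 3.73, a difference of 0.029 (SE 0.22, limma adjusted p = 0.959). Rat beta-globin genes are close copies, so the share of signal that belongs to each copy is uncertain.

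The brightest probes of the adult alpha- and beta-globins and of Hbe2 tracked Hbb array by array. Hba-a1, an alpha-globin, read 8.71, 9.02 and 8.54 on the vehicle arrays and 8.58, 9.08 and 8.98 on the tBA arrays. Over the 6 arrays Pearson r with Hbb was 0.99 for Hba-a1, 0.98 for Hbb-b1, 0.97 for Hbb-bs, 0.97 for Hbe2 and 0.94 for Hba-a3, against 0.42 for Hbg1 and 0.20 for Hbz. In each of the first 5 genes the brightest probe had vehicle replicate 3 and tBA replicate 1 as its 2 lowest arrays. Of 14 other globin symbols listed, 8 were named on the array and 7 were tested. All 7 had higher means with tBA, with a median of 0.12, and 0 passed over all probes. Without tBA replicate 2, and again without vehicle replicate 3, 3 were higher and 4 lower, with medians of -0.018 and -0.015. Within slide 1, where only tBA replicate 1 stands for the treatment, 5 were lower and 2 higher (median -0.24), and with quantile normalization 6 were higher and 1 lower. Hbg1, a globin of the embryonic cluster, read -5.58, -4.92 and -5.29 in vehicle livers and -4.33, -4.46 and -4.63 in tBA livers. Its spot cleared background on all 3 tBA arrays but on only 1 vehicle array, so it entered the test only through the group in which it was higher. Where detection on all 6 arrays was required it was not tested, and the 6 globins that were had higher means (median 0.12). Hbz, an embryonic alpha-type globin, was at 0.19 (SE 0.23), and Hbe1 was well above background on no array. A second Hba-a3 probe read 0.35, 0.45 and -0.090 on the vehicle arrays and -7.36, 0.47 and -0.74 on the tBA arrays. On tBA replicate 1 that spot was not well above background, while the brightest Hba-a3 probe read 7.83 there. A second Hbe2 probe was far dimmer than the first, at -2.47, -2.16 and -2.46 in vehicle and -2.52, -1.82 and -2.19 in tBA livers. The brightest Hbe2 probe read 5.86 to 6.53, and whether it reads Hbe2 alone was not tested.

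**Figure D2:**
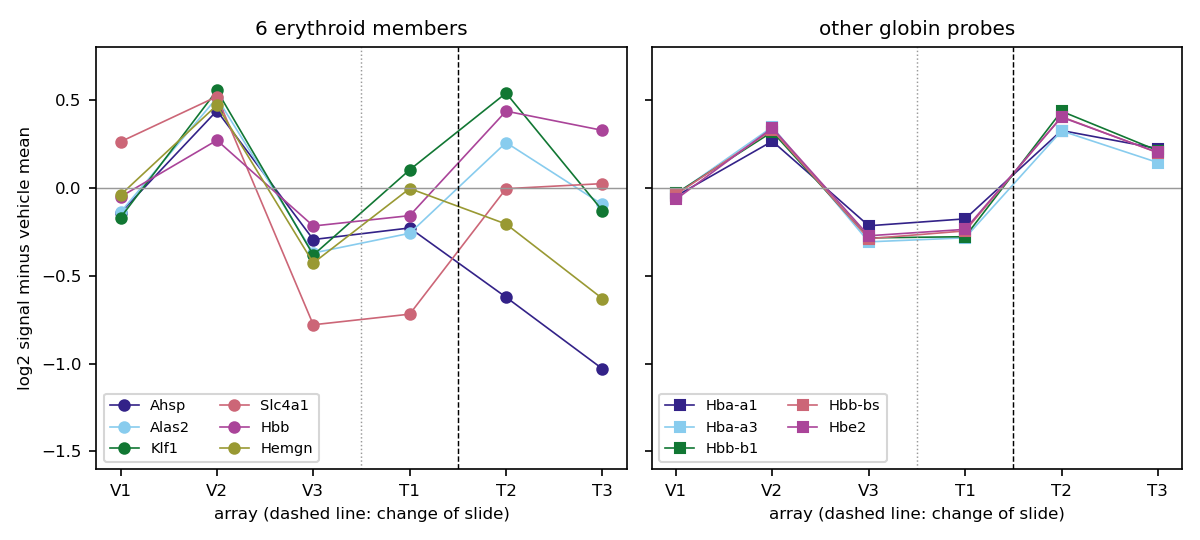
Level of each gene's brightest probe minus its own vehicle mean (log2, vertical axis) on the 6 arrays, for the 6 tested members on the left and 5 other globins on the right; thin lines join the values of 1 gene and carry no order of replicates. The dotted line separates vehicle from tBA and the dashed line slide 1 from slide 2. The 5 globins lie close together, while on tBA replicate 3 Ahsp is at -1.03 and Hbb at 0.33.

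Ahsp had the lowest unadjusted p of the members. It encodes the alpha-haemoglobin stabilising protein, the chaperone that holds free alpha-globin until beta-globin binds it. Its brightest probe read -0.0074, 0.57 and -0.16 in vehicle livers and -0.093, -0.49 and -0.89 in tBA livers. The values of tBA replicates 2 and 3 lay below all vehicle values, and tBA replicate 1 lay between vehicle replicates 1 and 3. The difference was -0.63 (SE 0.27, 95% interval -1.28 to 0.023, limma unadjusted p = 0.0563, adjusted p = 0.326). The second Ahsp probe read -0.86, -0.27 and -1.07 against -0.84, -1.21 and -1.72, with a difference of -0.53 (SE 0.29, limma adjusted p = 0.410), and r between the probes was 0.99. Within slide 1 the brightest probe was at -0.23, a difference that rests on tBA replicate 1 alone. Both tBA values below the vehicle range came from slide 2, which held no vehicle array, and treatment and slide cannot be told apart for these arrays. Without vehicle replicate 2 the difference was -0.41.

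By their brightest probes, Ahsp and Hbb stood on opposite sides of their vehicle means on the arrays of slide 2. Ahsp was at -0.62 and -1.03 relative to its vehicle mean on tBA replicates 2 and 3, where Hbb was at 0.44 and 0.33. The second Hbb probe read 4.02 and 3.73 on these arrays, with a vehicle mean of 3.70. The height of Hbb on tBA replicate 3 thus depended on the probe. On tBA replicate 1 Ahsp was at -0.23 and Hbb at -0.16. The log2 distance of Ahsp from the brightest Hbb probe within an array was a measure chosen after seeing the data. It was -7.89, -7.63 and -7.87 on the vehicle arrays and -7.87, -8.86 and -9.15 on the tBA arrays. Its group difference was -0.83 (exact two-sided permutation p = 0.3, n = 3 per group, adjusted p = 0.5 over 5 members), with 2 of 3 tBA arrays below the vehicle range. The same distance gave differences of -0.48 for Hemgn, -0.43 for Slc4a1, -0.23 for Alas2 and -0.031 for Klf1, with exact permutation p of 0.2 to 0.9. Hemgn followed Ahsp over the arrays at r of 0.91, and its r with Hbb was 0.022. The r of Ahsp with Hbb was -0.28 over the same 6 arrays.

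The membrane genes were partly out of reach. Slc4a1, the chloride-bicarbonate exchanger of the red cell membrane, read -0.74, -0.48 and -1.78 in vehicle livers and -1.72, -1.01 and -0.98 in tBA livers by its brightest probe. Vehicle replicate 3 and tBA replicate 1 were the lowest arrays, as they were for Hbb and the 5 globins that tracked it. The difference was -0.23 (SE 0.38, 95% interval -1.15 to 0.69, limma adjusted p = 0.779), at -0.72 within slide 1 and 0.025 without vehicle replicate 2. The second Slc4a1 probe was well above background on no array. Epb42, which ties the exchanger to the membrane skeleton, was well above background on 2 of 3 arrays of each group, at -4.57, -4.06 and -5.03 in vehicle and -4.79, -4.86 and -4.53 in tBA livers. Its second probe was well above background on tBA replicate 3 alone, at -5.02. Rhag, a membrane glycoprotein of the Rh complex, was well above background on no array by either probe, with values of -7.40 to -5.73. This is a limit of detection and not a level.

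**Figure D3:**
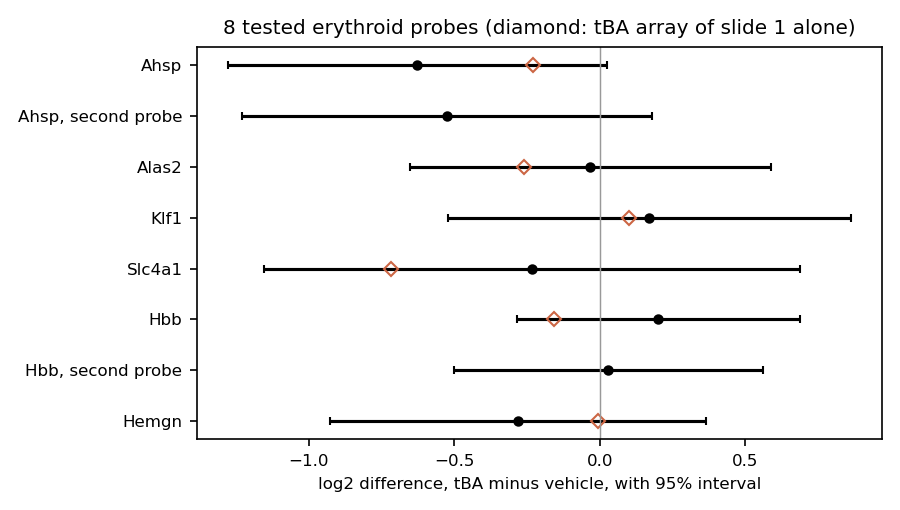
Difference in log2 signal, tBA minus vehicle, of the 8 erythroid probes tested (points) with 95% intervals from limma (bars), n = 3 arrays per group. Open diamonds give tBA replicate 1 minus the vehicle mean of slide 1 for the brightest probe; the intervals of all 8 probes include 0.

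Arrays of 1 group differed more in these genes than in most, with 1 array per animal and the tBA arrays on 2 slides. The pooled within-group SD of the brightest probe was 0.39 for Ahsp, 0.37 for Alas2, 0.42 for Klf1, 0.57 for Slc4a1, 0.28 for Hbb and 0.39 for Hemgn. The median over the 11093 genes tested was 0.16 and the 90th percentile 0.42. Hbb lay at the 78.4th percentile of this spread and Slc4a1 at the 95.3th. Members and all genes were not matched for signal level, and Klf1 and Hemgn were dim. With normexp background correction the SE of the difference fell from 0.29 to 0.11 for Klf1 and from 0.27 to 0.11 for Hemgn. It fell less in the other members tested. Among the vehicle arrays, replicate 2 was highest and replicate 3 lowest in 6 of 6 members, an order found in 19.0% of all genes tested. In 5 of 6 members vehicle replicate 2 was the highest of all 6 arrays, against 17.3% of all genes, and in Hbb it was tBA replicate 2. The mean of the 6 members, each centred on its own mean, was 0.020, 0.53 and -0.35 on vehicle replicates 1 to 3 and -0.14, 0.13 and -0.19 on tBA replicates 1 to 3. The genes most like this mean over the 6 arrays were Csgalnact1 (r = 0.98), Usp21 (0.97), Stx4 (0.97), Scx (0.96) and Rere (0.96). Among 11083 genes compared, 10 reached an r of 0.95 and 56 an r of 0.9.

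Genes that work with the members were taken from lists of red cell biology, and 0 of their tested genes passed over all probes. Hepatocytes can express genes of these lists too, and which liver cells gave the signals was not tested. Of 15 haem synthesis and transport genes tested, 10 had higher and 5 lower means with tBA, with a median of 0.061; 2 were higher and 0 lower at an unadjusted p under 0.05, against 7.59% and 7.46% of all genes. Abcb6, a porphyrin transporter, was at 0.33 (SE 0.10) and Uros, the uroporphyrinogen synthase, at 0.34 (SE 0.11), both with limma adjusted p near 0.26. Ppox, the protoporphyrinogen oxidase, was at -0.21 (SE 0.10) and Alad, the porphobilinogen synthase, at -0.15 (SE 0.089). With 1 array left out, 8 to 11 of the 15 genes had higher means, with medians from 0.043 to 0.11 (the highest without vehicle replicate 1). Alas1, the housekeeping form of the Alas2 enzyme, was at 0.61 (SE 0.41, limma adjusted p = 0.481), with vehicle values from 5.72 to 6.83 and tBA values from 6.07 to 7.31.

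Among the erythroid transcription partners 11 were tested, and 9 had lower and 2 higher means with tBA (median -0.16). Within slide 1 the split was 6 higher and 5 lower (median 0.038), and without tBA replicate 3 it was 5 higher and 6 lower (median -0.088). Without vehicle replicate 2 the median was -0.051, and without tBA replicate 1 it was -0.30. Bcl11a, a repressor of fetal-type globins, was at 0.25 (SE 0.078, limma adjusted p = 0.251), and the 3 tBA values lay above the vehicle range. Zbtb7a, another repressor of fetal-type globins, was at 0.30 (SE 0.13, limma adjusted p = 0.341), with both probes higher. Runx1 was at -0.35 (SE 0.17) and Lyl1 at -0.26 (SE 0.12). Nfe2, a partner of the globin control region, was at -0.55 (SE 0.39), with vehicle replicate 2 at -3.09 and the other arrays at -4.85 to -4.18. Gfi1b, a repressor of the red cell and platelet lines, was well above background on no array.

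The membrane and skeleton list gave 12 further tested genes, 8 with lower and 4 with higher means (median -0.052). Without tBA replicate 2 the split was 6 and 6 (median -0.0020), and without vehicle replicate 3 it was 9 lower and 3 higher (median -0.11). Rhd, the red cell Rh protein, was at -0.57 (SE 0.36) and Icam4 at -0.62 (SE 0.29). Rhd had the members' order of vehicle arrays, at -2.25, -1.65 and -3.11, an order that 19.0% of all genes tested shared. The macrophage marker Vsig4 had it as well, at 1.13, 1.41 and 0.67.

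In the erythropoietin pathway 14 genes were tested, and 10 had higher and 4 lower means (median 0.15). The largest difference was in Tfrc, the transferrin receptor that feeds iron to dividing cells and precursors, at 2.44, 2.62 and 2.21 in vehicle and 2.90, 3.08 and 3.07 in tBA livers. The groups did not overlap, as in 12.8% of all genes on the higher side, and the difference was 0.59 (SE 0.13, limma adjusted p = 0.193), with all 3 Tfrc probes between 0.56 and 0.75. Jak2, the kinase bound to the receptor, was at -0.21 (SE 0.094). Epor, the erythropoietin receptor, was at 0.11 (SE 0.095), and Epo, the hormone, was well above background on no array. Late red cell genes numbered 10 tested, 7 with lower and 3 with higher means (median -0.18, and -0.079 without vehicle replicate 2). Car1, the carbonic anhydrase of red cells, read -1.86, -0.93 and -1.76 in vehicle and -2.26, -2.45 and -2.24 in tBA livers. The groups did not overlap, as in 11.4% of all genes on the lower side, and the difference was -0.80 (SE 0.25, limma adjusted p = 0.261). Catalase, Cat, which is abundant in hepatocytes as well, was at -0.52 (SE 0.15, limma adjusted p = 0.239). Blvrb, a biliverdin reductase, lay the other way, at 5.23, 5.38 and 5.16 in vehicle and 5.52, 5.76 and 5.41 in tBA livers. The groups did not overlap, the difference was 0.31 (SE 0.12, limma adjusted p = 0.310), and all 3 probes were higher, at 0.31 to 0.46.

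Genes that clear haemoglobin and haem divided evenly, with 6 of 12 tested higher and 6 lower and a median of -0.069 (0.0045 without vehicle replicate 2). Hmox1, the inducible haem oxygenase, was at -0.48 (SE 0.17, limma adjusted p = 0.279), with vehicle values of 1.81 to 2.35 and tBA values of 1.5 to 1.77. Hpx, the haem carrier of plasma, was at -0.26 (SE 0.12) and Slc48a1, a haem transporter, at -0.22 (SE 0.13). Fth1, the ferritin heavy chain, was at 0.15 (SE 0.089). The haemoglobin carrier Hp was at 0.14 (SE 0.084).

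**Figure D4:**
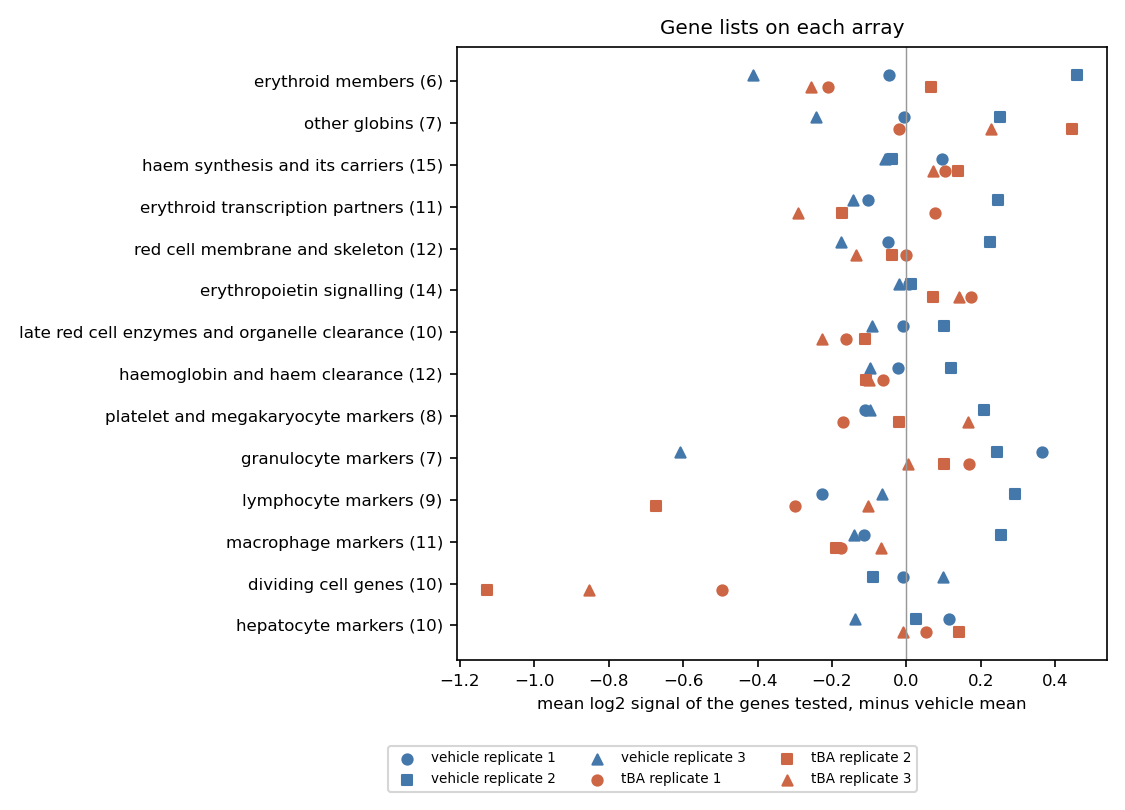
Mean log2 signal of the tested genes of each list on each array, relative to the vehicle mean (horizontal axis), with vehicle arrays in blue, tBA arrays in orange and the number of genes in brackets. Vehicle replicate 2 is the highest vehicle array in all lists except haem synthesis, granulocyte, dividing cell and hepatocyte genes. Dividing cell genes lie between -1.13 and -0.50 on the tBA arrays.

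Markers of other blood cells, and of macrophages, which also reside in the liver, were measured on the same arrays. Vehicle replicate 2, the array with the highest erythroid mean, was also the highest vehicle array for platelet markers (0.21 relative to the vehicle mean), lymphocyte markers (0.29) and macrophage markers (0.25), and stood at 0.24 for granulocyte markers, where vehicle replicate 1 was at 0.37. The same array led the vehicle group in every red cell list except haem synthesis, but not for hepatocyte or dividing cell genes. It was the highest vehicle array in 35.1% of all genes tested. Of 10 platelet genes named, 8 were tested, 5 with lower and 3 with higher means (median -0.046). Without vehicle replicate 2 the split was 6 higher and 2 lower (median 0.11), and without tBA replicate 1 or without tBA replicate 2 it was 5 higher and 3 lower. The summed level, in units of the 75th percentile, was 3.27 to 4.18 in vehicle and 3.31 to 4.60 in tBA livers. Summed levels here and below are over all named genes of a list, tested or not. Clec1b, a platelet receptor also made by sinusoidal endothelium, was at 0.42 (SE 0.14, limma adjusted p = 0.270), and Gp1ba was well above background on no array. Of 14 granulocyte genes named, 7 were tested, 5 with higher and 2 with lower means (median 0.14, from 0.027 without vehicle replicate 3 to 0.34 without vehicle replicate 1). Their summed level was 3.36 to 4.96 against 4.29 to 4.65. The granule genes Elane, Ctsg, Ltf, Mmp8 and Ngp were well above background on no array. Fcnb, a ficolin of myeloid cells, was at -0.64 (SE 0.17, limma adjusted p = 0.217).

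All 9 lymphocyte genes tested had lower means, with a median of -0.43 and a summed level of 4.0 to 5.63 against 3.22 to 4.26; Cd8a was at -0.64 and Prf1 at -0.21, and 0 passed over all probes. Without tBA replicate 2, and again without vehicle replicate 2, 7 were lower and 2 higher, with medians of -0.18 and -0.22. Macrophage genes numbered 11 tested, 8 with lower and 3 with higher means, with a median of -0.081, a summed level of 187 to 245 in vehicle and 203 to 210 in tBA livers, and the scavenger receptor Marco at -0.64. Without vehicle replicate 2, 7 were higher and 4 lower (median 0.025), and without vehicle replicate 3 the median was -0.17. All 10 dividing cell genes tested had lower means, with a median of -0.73 and a summed level of 4.97 to 5.65 against 2.60 to 4.15; Nuf2, a kinetochore protein, was the 1 gene that passed over all probes (limma adjusted p = 0.00624). It was well above background on no tBA array and at least 2.91-fold lower, and it entered the test only through the vehicle arrays. Where detection on all 6 arrays was required Nuf2 was not tested, and the 9 dividing cell genes that were had lower means (median -0.62). Without tBA replicate 2 the limma adjusted p of Nuf2 was 0.0626, when 9 of the 10 genes were lower. That p was 0.105 with normexp background correction, 0.109 with the replicate block and 0.0662 with slide as a fixed block. Within slide 1, where tBA replicate 1 stands alone, the difference of Nuf2 was -1.68. The part of these cell types in the erythroid values was not tested.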

How the data were processed

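Total RNA of 6 livers was labelled with Cy3 and hybridised to 1 array each. The intensity of each spot was deposited by the authors as a processed, background-subtracted signal. Per the file headers it was made with version 10.7.1.1 of Agilent Feature Extraction, on a design annotated to rn4. The submitters' processing notes give version 10.7. The deposited series table holds a linear ratio, the processed signal over 1 divisor per array (570.0 to 639.5), close to the 75th percentile; its column medians were 0.095 to 0.102, with no centring per gene.

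The measure was log2 of the processed signal minus the 75th percentile over 61657 probes. Controls were dropped, and spots the scanner called outliers (3 to 16 an array) became missing values. Testing needed every array of 1 group or more to be well above background (37647 probes). Fits used R 4.3.3 and limma 3.58.1 (lmFit, eBayes), with Benjamini-Hochberg adjustment over all probes tested. A gene took its probe of highest mean. Names came from RefSeq transcripts of GRCr8 (27460 probes named). In an "at least" fold, each dim array counts at that array's lowest signal well above background, or at the measured signal of the probe where that is higher.

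The genes named are all members, genes from the 4 of smallest p in each list, any list gene that passed, and the 5 genes most like the members' mean. Chosen after their values were seen were Alas1, Nfe2, Epor, Hp, Vsig4, the other globins and genes not detected. A membrane list gene that this rule names is not reported here. Members and lists were chosen with earlier results of these data known. Alternatives covered background correction (normexp with an offset of 50, on the median signal), scaling, filters, variance model, slide, replicate block and left-out arrays; distances from Hbb were added after seeing the data. Replicate numbers were not taken as pairs of animals in the main fit. After the group mean of each probe was removed, the remaining values of same-numbered arrays correlated at -0.064 to 0.014. The fit was tested on simulated data. Figures used Python 3.11.15 and matplotlib 3.10.9, and tables numpy 2.4.6 and pandas 2.3.3.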

Additional observations from a re-analysis of the deposited data

How the results depend on the processing

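No erythroid member passed an adjusted p of 0.05 in limma under any alternative run. The lowest adjusted p of Ahsp was 0.21. Its difference was below 0 under all 21 alternatives, from -0.83 as the distance from Hbb to -0.23. The latter came within slide 1 and with slide as a fixed block, and rests on tBA replicate 1. The filters, the floor, the intensity trend and the replicate block left it at -0.63 and could not turn its sign. Signs turned elsewhere: Alas2 was at 0.041 with median normalization, 0.081 without tBA replicate 1 and 0.22 without vehicle replicate 2. Hemgn was at 0.071 with normexp. Hbb was at -0.16 within slide 1 and with slide as a fixed block, which both rest on tBA replicate 1. Slc4a1 was at 0.0088 without tBA replicate 1 and 0.025 without vehicle replicate 2. Klf1 was at -0.015 without tBA replicate 2, -0.022 without vehicle replicate 3 and -0.031 relative to Hbb. The cause was not tested. With 1 array left out, Alas2 ran from -0.22 to 0.22, Slc4a1 from -0.62 to 0.025 and Klf1 from -0.022 to 0.45. The members' median difference ran from -0.36 to 0.12 when 1 array was left out, and the number of 6 members with higher means from 1 to 4; within slide 1 or with slide as a fixed block it was 1. The count of passing probes was 0 when detection on all 6 arrays was required (35660 probes tested), 64 with a floor on dim signals, 68 with an intensity trend, 18 with no filter on dim probes, 20 with slide as a fixed block, 0 within slide 1 and 6 with the replicate block, and 6 to 45 with 1 array left out. Without tBA replicate 2 it was 6, without tBA replicate 3 it was 14, and without vehicle replicates 1 and 3 it was 22 and 25. The replicate block changed no call of a member. The number of arrays and, for Gata1, Rhag and Epb42, signal near background limit what could be seen.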
